A study of Mus musculus with 75 samples.

Results

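Loops that were called while cells left mitosis but had no counterpart in late G1 numbered 1768, of 17651 loops in the ana/telophase, early-G1 and mid-G1 lists and 29075 loops over all 5 stages of the series. They are called transient loops here. They were chosen by their absence from the late-G1 loop list. A loop counted as transient if no loop of the late-G1 list had both of its anchors within 20 kb of the loop's own anchors on the same chromosome. Absence means absence from that list, since late-G1 contact at these positions was not analysed here. The other loops of the same lists, those with a late-G1 counterpart, are called retained loops.

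The cells were mouse G1E-ER4, a subline of the proerythroblast line G1E, which lacks GATA1, of strain 129. All 5 groups share this background and the same block: 200 ng/ml nocodazole held the cells in pro-metaphase. They were released for 0 min (pro-metaphase), 25 min (ana/telophase), 60 min (early G1), 120 min (mid G1) or 240 min (late G1) and sorted by stage. In situ Hi-C, which reads out pairs of DNA segments that lie close together, had 2 samples in each stage. ChIP-seq for CTCF had 2 samples in each stage after pro-metaphase and ChIP-seq for Rad21 had 2 in each. One line stands behind all of them. Peaks of asynchronous cells were also used where named. Their labels give no nocodazole and no release time, and CTCF and Rad21 had 2 samples each. Each stage had a single pooled list of loops, domains or peaks, so values have no spread over replicates and no test between stages or groups was possible. Intervals given below are 95% intervals for counting error only, and loops that share anchors are not independent.

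Chromatin loops join pairs of distant sites, and many in interphase cells form when the ring-shaped cohesin complex extrudes DNA until it meets CTCF, a zinc-finger protein bound in a defined orientation. Rad21 is a core subunit of cohesin. Loops can also join active elements such as promoters and enhancers without CTCF at their ends. Mitotic chromosomes lack most loops and domains, and both are rebuilt after division. A domain boundary is a position across which contacts are depleted. Here the distinct starts and ends of the listed domains were taken as boundaries, so edges in neighbouring bins count separately.

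Transient loops made up 150 of 908 ana/telophase loops (16.5%, 14.2 to 19.1), 591 of 7029 early-G1 loops (8.41%, 7.77 to 9.08) and 1027 of 9714 mid-G1 loops (10.6%, 9.97 to 11.2). The late-G1 list, against which they were set, was the longest with 11340 loops, and the pro-metaphase list held 84. The rule itself used these matches, so the shares are a description. They depend on the rule: with the bins of the highest pixel set within 20 kb of each other in place of the anchors, they were 34.9%, 22.9% and 25.5%. The share also varied by chromosome. In ana/telophase it ran from 6.67% on chromosome 3 (3 of 45 loops, 1.40 to 18.3) to 29.0% on chromosome 6 (9 of 31, 14.2 to 48.0). In early G1 it ran from 4.71% on chromosome 3 (2.82 to 7.35) to 19.0% on chromosome X (12.0 to 27.9). In mid G1 it ran from 6.49% on chromosome 10 (4.42 to 9.14) to 14.2% on chromosome 19 (10.7 to 18.4). These are extremes picked over all chromosomes, and the ana/telophase intervals overlapped. Chromosome X stood at 8.13% in mid G1.

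Most transient loops lay well beyond the limit of the rule. Taking the farther of the 2 anchors, the median distance to the nearest late-G1 loop was 80 kb for ana/telophase loops, 60 kb for those of early G1 and 80 kb for those of mid G1. Distances over 40 kb were found for 118 (78.7%), 386 (65.3%) and 718 (69.9%) of them in the 3 stages, and distances over 100 kb for 58, 193 and 433. Just inside the rule, at 30 kb, lay 20, 130 and 187 loops, with median observed/expected ratios of 3.54, 2.72 and 2.79. Just outside it, at 20 kb, lay 31, 218 and 353 retained loops with median ratios of 2.77, 2.74 and 3.08. The ratio is the authors' observed contact signal divided by their expected value for the loop.

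Several loops carried both proteins at both anchors and still had no late-G1 counterpart. Among early-G1 transient loops, the longest after a pair on chromosome 13 joined chr15:61810001-61830000 to chr15:63550001-63580000 (positions in build mm9), 1750 kb apart, with an observed signal of 17.8 and a ratio of 4.67. CTCF peaks of early G1 lay at both anchors with fold enrichments of 42.3 and 26.8, and Rad21 peaks with 16.2 and 10.8. These peak values are the authors' own. In late G1 both anchors still carried CTCF (41.0 and 31.3) and Rad21 (21.3 and 22.6). The loop was matched in mid G1 with a ratio of 6.19, whereas the nearest late-G1 loop, of 820 kb, left from the same upstream anchor and had a ratio of 6.49.

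A similar arrangement was found on chromosome 2. A 640-kb loop from chr2:61800001-61840000 to chr2:62460001-62480000 had a ratio of 8.76 in early G1 and was matched in mid G1 with a ratio of 13.1. The nearest late-G1 loop left the same upstream anchor, spanned 470 kb and had a ratio of 8.45. Rad21 in early G1 was called at the downstream anchor only, with a fold enrichment of 8.51, and in late G1 at both (11.6 and 16.0). CTCF was called at both anchors in both stages.

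The longest transient loop joined chr10:3010001-3030000 to chr10:7310001-7330000, 4310 kb apart, in mid G1. Its observed signal was 16.7 against an expected 0.807, a ratio of 20.6. CTCF (33.3 and 47.8) and Rad21 (14.1 and 6.71) of mid G1 marked both anchors, as did CTCF and Rad21 of late G1. Neither anchor lay within 20 kb of any late-G1 loop anchor, and 8 late-G1 domain boundaries lay between them, 1 of which had no mid-G1 boundary within 20 kb. A 1940-kb mid-G1 loop from chr8:110120001-110150000 to chr8:112050001-112080000 had a ratio of 10.2 and both proteins at both anchors in both stages. Between them lay 5 late-G1 boundaries, 2 of them new, in neighbouring bins at positions 111300001 and 111310001. A 1060-kb mid-G1 loop from chr12:75410001-75440000 to chr12:76490001-76500000 had a ratio of 12.4, and its downstream anchor overlapped that of a 120-kb late-G1 loop with a ratio of 3.10. In these 3 mid-G1 loops the anchors kept CTCF and Rad21 peaks in late G1.

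Other strong transient loops had neither protein. The highest ratio in ana/telophase, 57.5 (rank 2 of 908), belonged to a 280-kb loop from chr4:143200001-143220000 to chr4:143470001-143490000, with an observed signal of 183. A loop there was called again in mid G1 with a ratio of 22.0. The nearest CTCF peak of asynchronous cells was 229 kb from the upstream anchor and 127 kb from the downstream one. The highest ratio in early G1, 13.3, was that of a 230-kb loop from chr1:141790001-141810000 to chr1:142010001-142030000, with the nearest such peaks 454 and 350 kb away. Another region of this kind lay on chromosome 12, where a 170-kb loop starting at chr12:116440001 had a ratio of 8.40 in early G1 and its mid-G1 match, of 140 kb, a ratio of 20.0. The early-G1 loop nearest to that mid-G1 loop was another, with a ratio of 4.86. The late-G1 loops nearest to the named loops of chromosomes 4, 1 and 12 had ratios of 25.6, 42.5 and 38.3, at 320, 300 and 90 kb. Loops with both anchors over 100 kb from any CTCF peak of asynchronous cells were few, 5 of 150 transient loops in ana/telophase (3.33%), 16 of 591 in early G1 (2.71%) and 14 of 1027 in mid G1 (1.36%), against 2.77%, 0.621% and 0.495% of retained loops. The difference was 2.09 points in early G1 (1.03 to 3.74) and 0.868 points in mid G1 (0.293 to 1.79). Whether the lack of peaks around them is a matter of read mapping was not tested.

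Transient loops were short in ana/telophase and long in mid G1. Their median size was 70 kb (60 to 70) against 110 kb (110 to 120) for retained loops in ana/telophase, 100 kb (90 to 120) against 150 kb in early G1, and 180 kb (170 to 200) against 160 kb (160 to 170) in mid G1. Loops under 100 kb made up 68.7%, 46.5% and 28.5% of transient loops in the 3 stages, and 41.2%, 25.6% and 21.5% of retained loops. At the other end, loops of 400 kb and over made up 18.3% of transient and 8.06% of retained loops in mid G1.

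**Figure D1:**
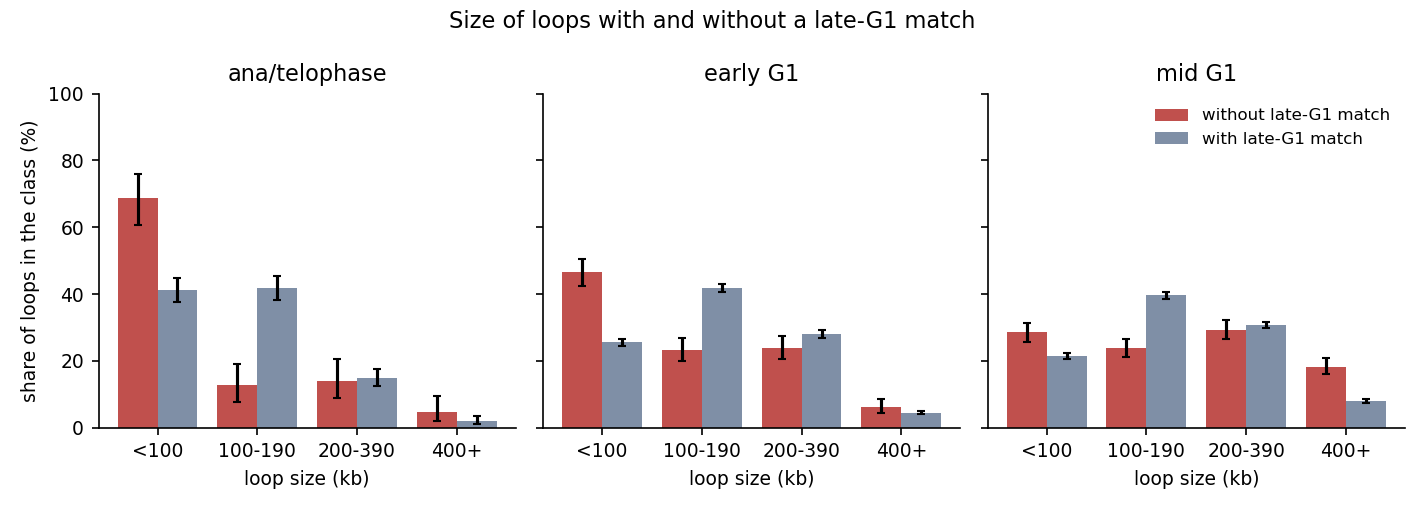
Share of loops in 4 size classes (y, %) for transient loops (without a late-G1 match, red) and retained loops (with a match, grey) of ana/telophase, early G1 and mid G1, with exact 95% intervals for counting error. The red bar exceeds the grey one below 100 kb in all 3 panels, most in ana/telophase (68.7% against 41.2%), and at 400 kb and over most in mid G1 (18.3% against 8.06%).

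Read the other way, loops of 100 to 190 kb were the least often transient in every stage. Of ana/telophase loops under 100 kb, 24.8% were transient. The next class, 100 to 190 kb, had 5.65%, the class of 200 to 390 kb had 15.7% and the longest class 30.4%. The early-G1 values in the same order were 14.3%, 4.87%, 7.25% and 11.3%, and the mid-G1 values 13.5%, 6.62%, 10.1% and 21.2%. The longest class of mid G1 held 188 transient loops.

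The strength of transient loops was set against that of retained loops of the same list. Strength came from the same contact maps as the loop calls, so these values describe the loops and support nothing further. The median ratio was 3.10 (2.91 to 3.40) against 3.36 in ana/telophase, 2.73 (2.60 to 2.84) against 3.45 in early G1 and 3.19 (3.07 to 3.29) against 3.65 in mid G1. Size plays into the ratio. Below 100 kb the medians were 2.80 and 2.77 in ana/telophase, 2.13 and 2.65 in early G1, and 2.20 and 2.79 in mid G1. At 400 kb and over in mid G1 they were 4.93 and 6.23, with median sizes of 510 and 520 kb.

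The share of transient loops was lower at higher ratios in early and mid G1. In early G1, 16.3% of loops in the lowest quartile of the ratio were transient and 3.81% of those in the highest. In mid G1 these shares were 16.2% and 6.88%, and in ana/telophase 20.7% and 13.7%. Ordered by the authors' p-value instead, the quartile with the smallest p held 2.33% transient loops in early G1 and 1.89% in mid G1, and the quartile with the largest p held 17.8% and 22.9%. In ana/telophase the same quartiles held 16.7% and 10.6%, so the order seen in early and mid G1 was not found there.

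**Figure D2:**
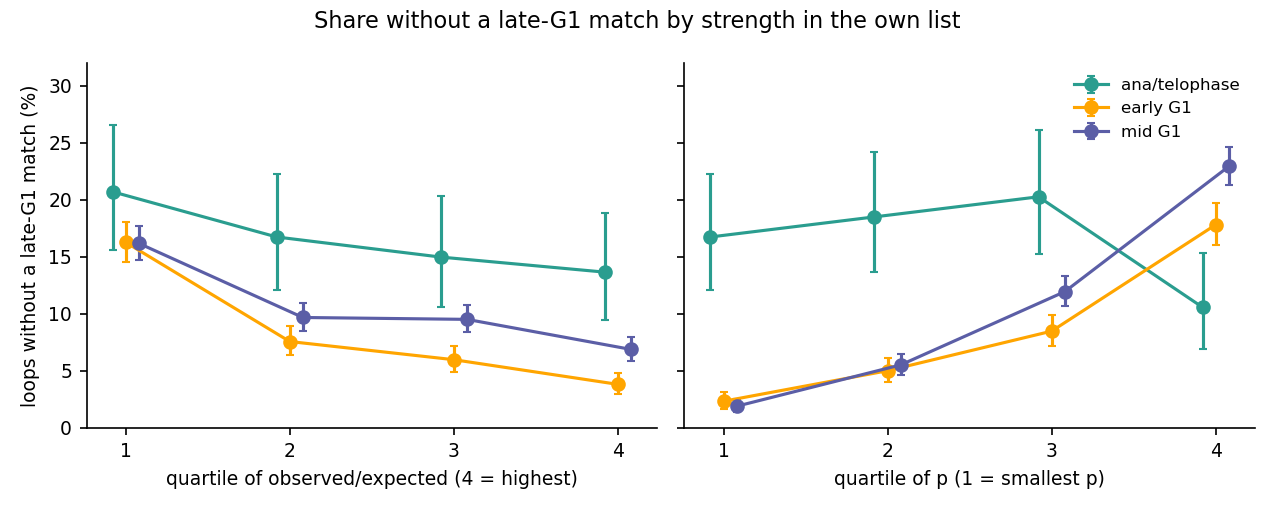
Share of loops without a late-G1 match (y, %) by quartile of the observed/expected ratio (left, 4 is the highest) and of the authors' p-value (right, 1 is the smallest) in each stage, with exact 95% intervals for counting error. Early and mid G1 run in 1 direction in both panels (2.33% to 17.8% and 1.89% to 22.9% over the p quartiles), whereas ana/telophase runs from 16.7% to 10.6%.

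Most transient loops were called at a single stage. A match at another stage before late G1 was found for 63 of 150 transient loops of ana/telophase (42.0%; 87.2% of all loops in that list), 294 of 591 of early G1 (49.7%; 90.6%) and 290 of 1027 of mid G1 (28.2%; 70.1%). For retained loops the shares were 96.2%, 94.3% and 75.0%. Of the transient loops of ana/telophase, early G1 held a match for 39, mid G1 for 37 and pro-metaphase for 11. Of those of early G1, 273 (46.2%) were matched in mid G1 and 40 (6.77%) in ana/telophase.

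Joining transient loops that matched within 20 kb at both anchors gave 1417 transient loci. Retained and pro-metaphase loops were not joined, so a locus of 1 stage may still match such a loop at another stage. Of these, 1187 (83.8%) held loops of 1 stage, 215 (15.2%) of 2 stages and 15 (1.06%) of all 3. Mid G1 alone held 763 loci, early G1 alone 326 and ana/telophase alone 98, and early and mid G1 together 187. Of the 98 loci of ana/telophase alone, 6 had a pro-metaphase match. A transient loop that was matched at the next stage was usually transient there too. The rule makes this likely, since the match lies within 20 kb of a loop chosen for lying apart from late-G1 loops. The share is therefore a description, and nothing is read from it. For 220 of the 273 early-G1 loops (80.6%) the nearest mid-G1 match was itself transient. The median ratio over these pairs was 2.81 in early G1 and 2.94 in mid G1, and it was higher in mid G1 in 111 of 220.

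**Figure D3:**
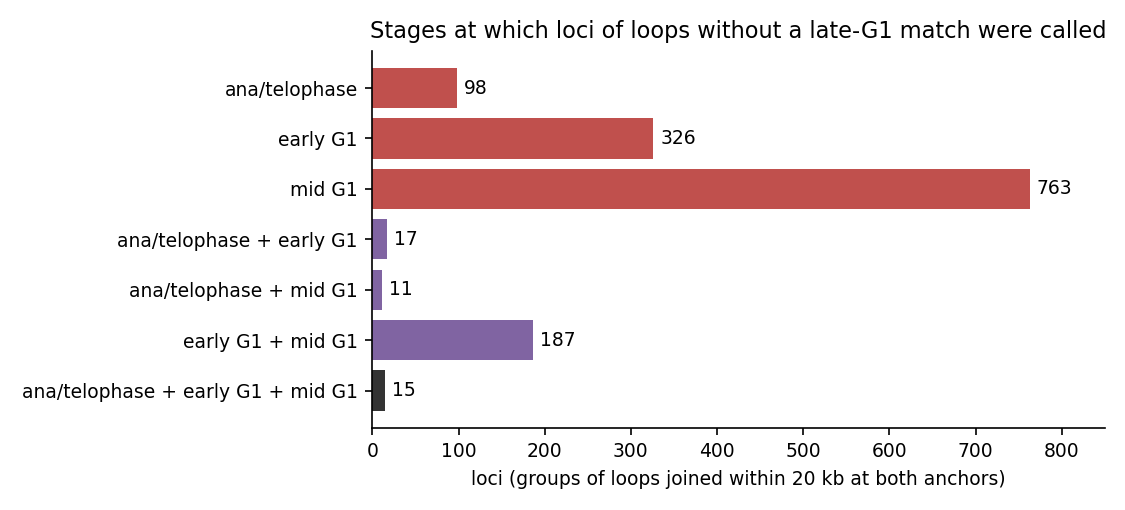
Number of loci (x) by the stages at which their transient loops were called (y), where a locus is a group of transient loops joined within 20 kb at both anchors. Loci of a single stage (red) hold 98, 326 and 763 of the 1417, loci of 2 stages are purple, and 15 were called at all 3 stages (black).

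Some loops were called at all 3 stages and not in late G1. A 50-kb loop on chromosome 7, from chr7:69640001-69660000 to chr7:69700001-69720000 in ana/telophase, had ratios of 5.75, 6.07 and 6.65 from ana/telophase to mid G1, and the nearest late-G1 loop lay 730 kb away. The nearest CTCF peaks of asynchronous cells lay 30 and 90 kb from its anchors. A 170-kb loop on chromosome 12, from chr12:114820001-114850000 to chr12:115010001-115020000, had ratios of 6.65, 5.33 and 6.98. CTCF was called at its upstream anchor in every stage, with fold enrichments of 52.4, 25.0 and 39.5 in those 3 stages and 26.8 in late G1. The nearest late-G1 loop left the same upstream anchor and ended 50 kb short of the downstream one. A loop from chr7:24440001-24460000 to chr7:24530001-24560000 was also matched in pro-metaphase, and its ratios were 8.89, 10.9, 5.21 and 5.62 from pro-metaphase to mid G1. It sat just inside the rule, 30 kb from a late-G1 loop of 180 kb.

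Transient loops that recurred differed from single-stage ones chiefly in mid G1. Those called in mid G1 only had a median size of 220 kb (200 to 230), and 21.3% of the 737 were under 100 kb. Those matched earlier had a median of 110 kb (90 to 130), and 46.9% of the 290 were under 100 kb. CTCF and Rad21 of mid G1 marked both anchors in 38.7% (35.1 to 42.3) of the former and 30.3% (25.1 to 36.0) of the latter. In early G1 the order was the other way, with 15.5% (11.6 to 20.1) of 297 single-stage and 22.1% (17.5 to 27.3) of 294 recurring loops. The intervals of these single-stage and recurring shares overlapped in both stages. Such overlap does not settle whether the shares differ, and no interval of the differences was computed. A late-G1 boundary lay between the anchors of 31.8% of the mid-G1-only loops and 17.2% of those matched earlier. These groups were not matched for size, and the longer mid-G1-only loops have more room for a boundary.

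CTCF and Rad21 peaks at the anchors were measured apart from Hi-C and were not used by the rule. A protein was counted at an anchor if a peak overlapped it. In early and mid G1, transient loops had fewer bound anchors than retained loops, and in ana/telophase no such difference in CTCF was detectable. CTCF of the loop's own stage marked both anchors of 76 of 150 transient loops in ana/telophase (50.7%; all loops of the list 50.7%), 280 of 591 in early G1 (47.4%; 64.2%) and 579 of 1027 in mid G1 (56.4%; 67.3%). Retained loops stood at 50.7%, 65.8% and 68.6%. The difference between transient and retained loops was 0.00704 points in ana/telophase (-8.67 to 8.65), -18.4 points in early G1 (-22.6 to -14.2) and -12.2 points in mid G1 (-15.4 to -9.01). The ana/telophase difference turned sign under other match distances (-1.86 points within 10 kb and -6.60 within 40 kb) and with widened anchors (-0.227).

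With Rad21 required as well, the own-stage shares were 19.3% in ana/telophase (all loops 21.9%), 18.8% in early G1 (32.8%) and 36.3% in mid G1 (49.6%). Retained loops stood at 22.4%, 34.1% and 51.2%. The differences were -3.09 points (-9.43 to 4.50), -15.3 points (-18.5 to -11.8) and -14.9 points (-17.9 to -11.7). Loops without any bound anchor were counted as well. No anchor carried CTCF in 17.3% of transient loops in ana/telophase (all loops 18.1%), 16.4% in early G1 (9.59%) and 13.7% in mid G1 (8.88%). No anchor carried Rad21 in 52.7% (44.5%), 43.8% (26.2%) and 24.4% (16.6%).

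The differences in early and mid G1 had the same direction in every size class. In early G1 the share with both proteins at both anchors differed by -11.1 points below 100 kb (-15.7 to -5.73). In the longer classes, in order of size, it differed by -17.8, -17.2 and -21.9 points, the last with an interval of -36.3 to -4.81. In mid G1 the values were -18.1, -22.9, -19.6 and -6.98, the last with an interval that reached 0.186. Among mid-G1 loops of 400 kb and over, 67.0% of transient and 74.0% of retained loops had both proteins at both anchors, the highest shares of any class in that stage.

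Ana/telophase differed by size. Below 100 kb, CTCF marked both anchors of 48.5% of transient and 36.9% of retained loops, a difference of 11.7 points (0.781 to 22.5). At 200 to 390 kb it marked 8 of 21 transient loops (38.1%) and 64.6% of retained loops, a difference of -26.5 points (-45.7 to -3.57). The 7 transient loops of 400 kb and over included 6 with CTCF at both anchors. CTCF peaks of ana/telophase were also denser between the anchors of transient loops, with 3.67 peaks per 100 kb against 1.90 for retained loops, and Rad21 peaks with 1.04 against 0.529. In early G1 the CTCF densities were 1.69 and 1.72, and in mid G1 1.44 and 1.69. Peaks were summed over loops, so a peak inside overlapping loops counts more than once.

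Late-G1 peaks in place of own-stage ones gave a like order in early and mid G1. With them, CTCF marked both anchors of 52.0% of transient loops of ana/telophase (all loops 50.1%), 48.6% of early G1 (65.2%) and 54.5% of mid G1 (66.5%). CTCF and Rad21 of late G1 marked both anchors of 29.3% (36.9%), 33.0% (53.6%) and 40.4% (54.8%), against 38.4%, 55.5% and 56.6% of retained loops. The differences were -9.06 points (-16.6 to -0.615), -22.5 points (-26.4 to -18.4) and -16.1 points (-19.3 to -12.9). The interval of the ana/telophase difference reached 0 for loops with smaller p-values (-8.11 points) and with the highest-pixel bins as anchors (-4.84 points), so that difference was not firm.

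**Figure D4:**
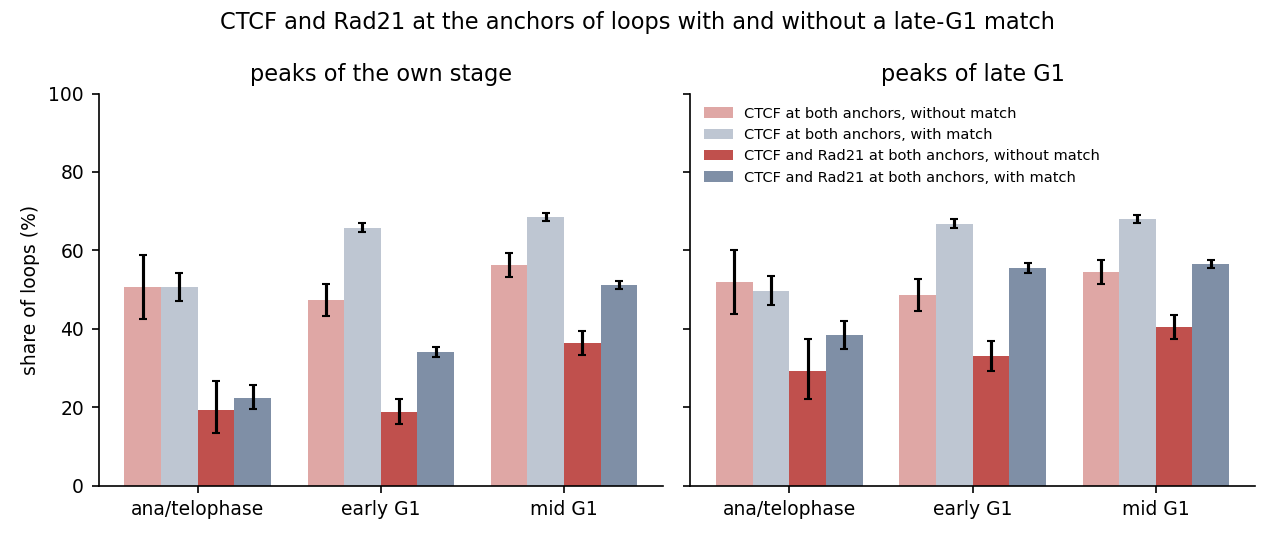
Share of loops (y, %) with CTCF (pale) or CTCF and Rad21 (dark) at both anchors, for transient (red) and retained (grey) loops of each stage, from peaks of the loop's own stage (left) and of late G1 (right), with exact 95% intervals for counting error. Red bars lie below grey ones in early and mid G1 in both panels, such as 18.8% against 34.1% for both proteins in early G1, whereas the pale bars of ana/telophase stand at 50.7% each on the left.

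Single peaks at the anchors of both kinds of loop were mostly kept into late G1. Of CTCF peaks at anchors of transient loops, 346 of 388 in ana/telophase (89.2%; 83.7% of all CTCF peaks of that stage), 1225 of 1304 in early G1 (93.9%; 90.9%) and 2191 of 2345 in mid G1 (93.4%; 89.2%) overlapped a late-G1 CTCF peak. At retained anchors the shares were 89.1%, 95.2% and 93.9%. For Rad21 the shares at transient anchors were 95.8% (all peaks 86.4%), 99.8% (98.5%) and 95.4% (93.4%), against 97.0%, 99.6% and 96.5% at retained anchors. Many of these peaks lay at anchors of both kinds of loop and count on both sides, 715 of the 1304 CTCF peaks in early G1 and 1358 of 2345 in mid G1. With them, all 6 intervals of the differences included 0.

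CTCF peaks at anchors of transient loops alone were kept less often than those at retained anchors in early and mid G1. Shared peaks were left out on the transient side only and still count at retained anchors. Such CTCF peaks were kept in 545 of 589 cases in early G1 (92.5%) and 900 of 987 in mid G1 (91.2%). These shares differed from those at retained anchors by -2.62 points (-5.06 to -0.727) and -2.72 points (-4.69 to -1.07). Both lay above the shares over all CTCF peaks of these stages, 90.9% and 89.2%. Such Rad21 peaks of mid G1 were kept in 441 of 480 cases (91.9%), a difference of -4.59 points (-7.41 to -2.43). In early G1 all 153 such Rad21 peaks were kept, a difference of 0.378 points (-2.08 to 0.583). Over all Rad21 peaks the shares were 93.4% in mid G1 and 98.5% in early G1. In ana/telophase 89.3% of 298 CTCF and 94.7% of 94 Rad21 peaks were kept, against 83.7% and 86.4% of all peaks. Both intervals of the differences from retained anchors included 0 (-4.06 to 3.59 and -8.89 to 1.14 points).

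Peak heights also depended on the shared peaks. With them, the median fold enrichment of CTCF peaks at transient and retained anchors was 20.3 and 23.0 in ana/telophase, 23.5 and 23.7 in early G1, and 24.0 and 24.1 in mid G1. For Rad21 it was 6.98 and 7.52, 7.96 and 7.69, and 10.0 and 9.66. At anchors of transient loops alone the CTCF medians were 21.2, 19.9 and 21.0 and the Rad21 medians 6.85, 7.02 and 8.32, each below the median at retained anchors. These medians have no interval. New Rad21 peaks were counted per anchor, as a share of all anchors, also of those with Rad21 already. In ana/telophase, a Rad21 peak of late G1 appeared where the own stage had none at 14.3% of transient and 17.2% of retained anchors. The shares were 16.9% and 17.2% in early G1, and 5.55% and 5.16% in mid G1. Anchors with Rad21 in neither stage made up 52.3% of transient and 42.9% of retained anchors in ana/telophase. In early G1 they made up 45.6% and 28.0%, and in mid G1 38.0% and 26.7%. More transient anchors thus lacked own-stage Rad21, and like shares do not mean a like rate of gain among them.

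Domain boundaries lay between the anchors of transient loops more often than of retained ones. A boundary was counted if it lay at least 20 kb inside both anchors. Late-G1 boundaries lay inside 16 of 150 transient loops of ana/telophase (10.7%; all loops 6.28%), 92 of 591 of early G1 (15.6%; 7.63%) and 284 of 1027 of mid G1 (27.7%; 12.8%). Retained loops stood at 5.41%, 6.90% and 11.0%. The differences were 5.26 points (0.858 to 11.4), 8.67 points (5.89 to 11.9) and 16.6 points (13.9 to 19.5). In ana/telophase the interval reached 0 when boundaries 10 kb inside the anchors were counted (4.21 points).

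Most of these boundaries had an own-stage boundary within 20 kb. Boundaries were summed over loops, so a boundary inside overlapping loops counts once for each of them. Of the late-G1 boundaries inside transient loops, 12 of 31 in ana/telophase, 50 of 165 in early G1 and 138 of 571 in mid G1 had none. Inside retained loops these were 41 of 109, 265 of 763 and 600 of 1869. Transient loops with a late-G1 boundary inside also held an own-stage one in 13 of 16, 68 of 92 and 237 of 284 cases. That own-stage boundary need not be at the same position. Own-stage boundaries lay inside 12.0% of transient loops of ana/telophase (all loops 6.72%), 13.7% of early G1 (7.81%) and 25.6% of mid G1 (12.5%), against 5.67%, 7.27% and 11.0% of retained loops. New late-G1 boundaries, with no own-stage boundary within 20 kb, lay inside 9 (6.00%; 3.74%), 40 (6.77%; 3.24%) and 101 (9.83%; 5.01%) transient loops. The difference for new boundaries was 2.70 points in ana/telophase (-0.497 to 7.82), 3.85 in early G1 (2.04 to 6.20) and 5.39 in mid G1 (3.66 to 7.41).

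Longer loops span more boundaries, so loops were compared within size classes. At 200 to 390 kb a late-G1 boundary lay inside 10 of 21 transient loops of ana/telophase (47.6%), 49 of 141 of early G1 (34.8%) and 103 of 302 of mid G1 (34.1%), against 14.2%, 11.5% and 14.2% of retained loops. The median sizes in this class were 290, 270 and 280 kb for transient and 230, 250 and 260 kb for retained loops. Per 100 kb, again summed over loops, the late-G1 boundaries numbered 0.339, 0.239 and 0.234 in transient and 0.121, 0.0751 and 0.0928 in retained loops. At 400 kb and over in mid G1, 83.0% of transient and 65.7% of retained loops held a late-G1 boundary, and a new one lay inside 30.3% and 29.9%, a difference of 0.462 points (-6.59 to 8.11). The longest class of ana/telophase went the other way, with 3 of 7 transient loops (42.9%) against 81.2% of 16 retained loops. The difference was -38.4 points (-68 to 1.84). Sizes were not alike in that class, with medians of 460 kb for transient and 725 kb for retained loops. Per 100 kb its late-G1 boundaries numbered 0.300 and 0.410. Below 100 kb few loops had room for one, with 5 of 293 in mid G1.

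**Figure D5:**
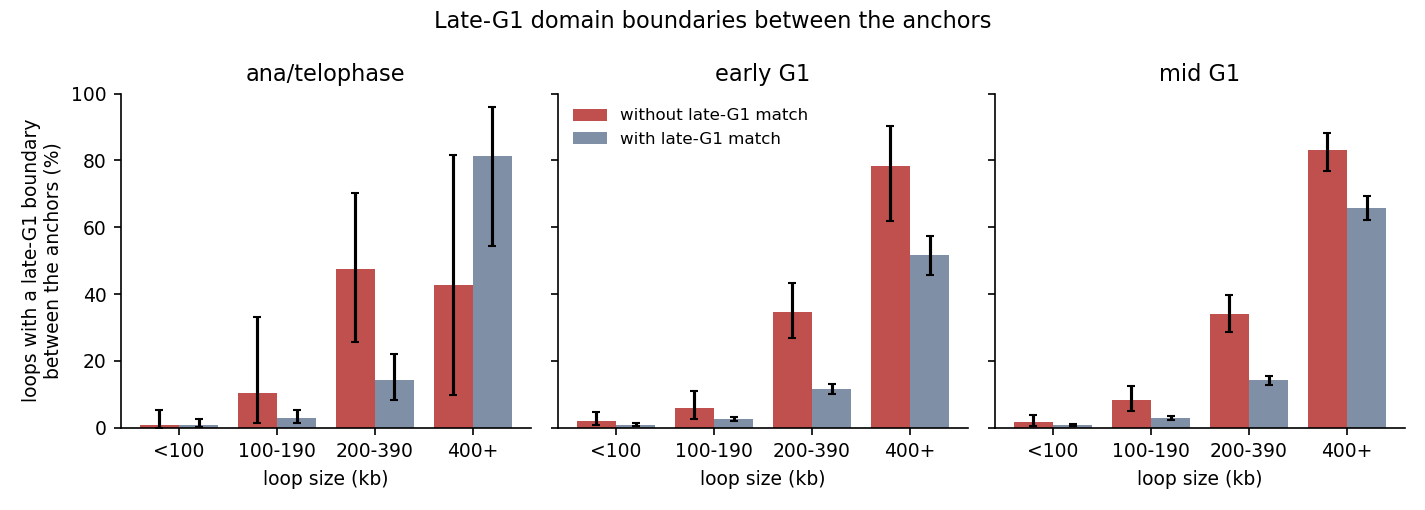
Share of loops with a late-G1 domain boundary at least 20 kb inside both anchors (y, %) by size class (x) for transient (red) and retained (grey) loops of each stage, with exact 95% intervals for counting error. At 200 to 390 kb the red bars (47.6%, 34.8% and 34.1%) stand above the grey ones (14.2%, 11.5% and 14.2%) in all 3 stages. In ana/telophase the order is turned at 400 kb and over, where the red bar rests on 7 loops. Median sizes in that class were 460 kb for transient and 725 kb for retained loops.

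A 280-kb ana/telophase loop on chromosome 2 gave an example of a boundary that appeared later. It joined chr2:18590001-18600000 to chr2:18850001-18880000 with a ratio of 7.26 and an observed signal of 20.8, and was called at no other stage. The own-stage list had no boundary inside it, and the late-G1 list had 1, at position 18740001, with CTCF and Rad21 peaks of late G1 within 20 kb. CTCF was called at the downstream anchor in ana/telophase (16.8) and late G1 (14.0), and Rad21 there in late G1 only (6.39). Both anchors lay within 20 kb of late-G1 loop anchors, but with other partners. On chromosome 13 an ana/telophase loop from chr13:23510001-23550000 to chr13:23830001-23840000, with a ratio of 5.26, held 2 late-G1 boundaries, of which the 1 at 23620001 was new. The early-G1 loop from chr13:21870001-21880000 to chr13:23640001-23670000, 1770 kb apart with a ratio of 7.88, spanned the same position.

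Most transient loops had both anchors near late-G1 loop anchors, which had other partners. Nearness does not show that the same site was an anchor in late G1, and no share for other positions was computed. Both anchors lay within 20 kb of some late-G1 loop anchor for 93 of 150 transient loops in ana/telophase (62.0%; all loops 93.7%), 363 of 591 in early G1 (61.4%; 96.8%) and 594 of 1027 in mid G1 (57.8%; 95.5%). Retained loops have late-G1 anchors there by definition, so nothing is read from the comparison. Only 1 anchor was so placed in 25.3%, 30.1% and 31.5% of transient loops, and neither in 12.7%, 8.46% and 10.7%. A longer late-G1 loop shared 1 anchor with 44.0% of transient loops of ana/telophase (all loops 62.4%), 59.4% of early G1 (65.2%) and 50.0% of mid G1 (60.0%). A shorter one did so with 26.7% (29.4%), 34.5% (43.6%) and 43.8% (45.2%).

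Stripes are lines of contact that run from 1 anchor along the chromosome. A late-G1 stripe anchor overlapped 1 or both anchors of 20.0% of transient loops in ana/telophase (all loops 31.4%), 27.1% in early G1 (40.5%) and 32.8% in mid G1 (39.0%). Retained loops stood at 33.6%, 41.8% and 39.7%.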

How the data were processed

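Hi-C and CTCF and Rad21 ChIP-seq lists of 5 stages were used, with CTCF peaks of asynchronous cells added. Rad21 peaks of asynchronous cells served in an alternative only. The submitters' processing notes list Bowtie (version 0.12.7), MACS2 (2.1.0), SAMtools (1.7) and bedtools (2.27.1) for ChIP-seq, Bowtie2 and HiC-Pro for Hi-C, and build mm9. No caller of loops, domains or stripes is given in the sources used here. Replicates were merged and downsampled before peak calling, per names given to peaks in the deposited files, and each stage had 1 list, so samples cannot be separated and depth is unknown.

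The authors' peak lists give a fold enrichment (a ratio) and a −log10 q for each peak. Their deposited score per peak was not used. The authors' loop lists give the observed contact signal of every loop beside its expected value and p-value. Stripe lists give the authors' ratio of strength, not used here beyond the stripes' positions.

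The ratio of a loop was observed divided by expected. It was not computed for 1 mid-G1 loop whose expected value was below 0.01. Size was taken between the 2 highest-pixel bins of a loop, in steps of 10 kb. Distances between anchors were gaps between intervals. A new boundary had no own-stage boundary within 20 kb. Shares have exact Clopper-Pearson 95% intervals, differences Newcombe intervals and medians order-statistic intervals, all for counting error only. Python 3.11.15, NumPy 2.4.6, pandas 2.3.3, SciPy 1.17.1, networkx 3.6.1 and Matplotlib 3.10.9 were used, and the overlap code was tested on simulated data against bedtools 2.31.1.

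The members, measures and alternatives were chosen with earlier results of these data known. Named loops were, for each stage, the 3 with the highest ratio, the 3 longest, the 3 with the highest ratio among those with both proteins at both anchors, the 3 with the highest ratio among those with a new late-G1 boundary, and the 5 loci called at the most stages. The text gives those that show each pattern. Counts of loops far from CTCF peaks, densities of peaks between anchors, single-stage against recurring loops and peaks at anchors of transient loops alone were chosen after seeing the data. RNA polymerase II ChIP-seq, input and Capture-C were left out, and genes were not assigned to anchors. Alternatives were other match distances, anchors by highest pixel, a stricter loop p (at most 0.1 times the list's maximum), widened anchors, asynchronous peaks, a minimum −log10 q of 5, 50% overlap of peaks, outermost domains only and other boundary distances.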

Additional observations from a re-analysis of the deposited data

How the results depend on the processing

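The settings gave 42 results under 15 alternatives. Of 135 recomputed differences between transient and retained loops, 122 kept both their direction and whether their interval held 0, and 6 turned sign, all in ana/telophase and all with intervals that held 0 before and after. These were CTCF of the own stage at both anchors (-1.86 points within 10 kb, -6.60 within 40 kb and -0.227 with anchors widened), CTCF of late G1 (-3.05 within 40 kb and -4.75 with anchors widened) and Rad21 peaks kept (4.34 with 50% overlap). The share of transient loops followed the match distance, since the members are defined by it: it was 19.9%, 11.5% and 14.2% in ana/telophase, early G1 and mid G1 with anchors within 10 kb, 13.0%, 5.49% and 7.39% within 40 kb, and 34.9%, 22.9% and 25.5% with highest pixels. With a stricter p it was 9.66% in mid G1. The median ratio of mid-G1 transient loops was 3.44 within 40 kb and 3.34 with the stricter p, and 25.5% of them were matched at another stage within 40 kb. The ana/telophase difference for both proteins of late G1 no longer cleared 0 with the stricter p (-8.11 points) or with highest-pixel bins as anchors (-4.84 points), the latter added after the data had been seen. Peaks at anchors of transient loops alone, also added later, were kept less often in early G1 (CTCF, -2.62 points) and mid G1 (CTCF, -2.72; Rad21, -4.59), with intervals that no longer held 0. With asynchronous peaks the own-stage difference in ana/telophase cleared 0 (-8.21 points). Boundaries 10 kb inside the anchors gave a difference of 4.21 points in ana/telophase, which no longer cleared 0. Both anchors lay near late-G1 loop anchors for 52.7%, 55.2% and 51.9% of transient loops within 10 kb and 74.7%, 80.0% and 71.2% within 40 kb. Apart from the match distances, which set the members, and the peaks left out, the cause of these changes was not tested. No paired analysis was possible because replicates were pooled in every list, and leaving out a replicate could not be run for the same reason. A −log10 q of 5 removed no CTCF peak. The lists give no read totals, so depth is unknown and a loop may be missing from late G1 because it missed the caller's threshold.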

Other observations

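A mid-G1 transient loop from chr4:112780001-112800000 to chr4:113460001-113490000, 700 kb long, had an observed contact signal of 198 but an expected value of 3.57e-16, so no ratio is given for it; it was singled out after its values were seen. It was called at no other stage. The nearest CTCF peaks of asynchronous cells lay 320 and 226 kb from its anchors, and the nearest late-G1 loop, 450 kb away, had a ratio of 99.8. Among the 20 transient loops with the highest ratios, 3 in ana/telophase, 4 in early G1 and 2 in mid G1 had both anchors over 100 kb from any such peak, against 4, 5 and 1 of the 20 highest among retained loops.

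Late-G1 domains come from Hi-C of the stage whose loop list chose the members, so the following shares are a description. Fewer transient than retained loops of early G1 matched a domain of late G1 end to end, 4.74% against 9.82%, a difference of -5.08 points (-6.70 to -2.94). In ana/telophase the shares were 2.00% and 5.54%, a difference of -3.54 points (-5.82 to 0.434). In mid G1 they were 10.3% and 12.1%, a difference of -1.78 points (-3.63 to 0.342). These shares mix sizes, and below 100 kb only 0 of 275 transient and 4 of 1646 retained early-G1 loops matched. At 200 to 390 kb the difference was -9.05 points in early G1 (-13.6 to -2.63) and -7.26 in mid G1 (-11.1 to -2.61). At 400 kb and over it was -16.1 (-27.1 to 0.0312) and -9.96 (-16.6 to -2.51). At 100 to 190 kb both intervals held 0 (-1.99 and 0.198 points), as did those of every ana/telophase class. A single late-G1 domain enclosed 83.2% of transient and 89.3% of retained loops of early G1, and 82.3% and 88.8% of those of mid G1. With own-stage domains the end-to-end shares of early G1 were 5.41% and 10.3%, a difference of -4.85 points (-6.58 to -2.61). Late-G1 boundaries at both anchors, over all sizes, went the other way in mid G1. They marked 22.1% of transient and 18.0% of retained loops (4.09 points, 1.52 to 6.84). In ana/telophase and early G1 that difference was 3.56 (-1.39 to 10.1) and -1.19 points (-3.83 to 1.90).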
